A study of Mus musculus with 16 samples.

Results

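Small RNAs of mouse sperm that resembled PIWI-interacting RNAs (piRNAs) in length and first base were examined in 8 libraries. A sequence was a member when it was 26 to 31 nt long, began with T as written in the DNA alphabet, had 100 or more reads summed over the 8 libraries, and matched none of 17 listed tRNA and rRNA sequences with up to 1 substitution. The members were thus chosen by length, first base, summed reads and lack of a match, and 4946 of the 4230643 distinct sequences of the 8 libraries met all of these. Another 3637 sequences met the same conditions but began with A, C or G.

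Sperm came from the cauda epididymis of adult C57BL/6NCrl males that kept Dnmt2 (Dnmt2+/+) or carried a homozygous deletion of it (Dnmt2-/-). Dnmt2 is a tRNA cytosine methyltransferase. The knockout came from a mixed B6;129 stock and was backcrossed to C57BL/6NCrl, and the labels do not say that the genotypes were littermates. Libraries of small RNA do not measure the Dnmt2 transcript, so they do not check the genotype. Males of each genotype received a normal diet (ND) or a high-fat diet (HFD, D12492). The 4 groups were Dnmt2+/+ ND, Dnmt2+/+ HFD, Dnmt2-/- ND and Dnmt2-/- HFD, each with 2 libraries, and the labels give neither the age at collection nor whether a library holds 1 male or a pool. Nothing in the labels says that the 2 libraries of a group came from separate males, so p-values measure only the spread between these libraries. Libraries held 10165031 to 19030258 reads, of which 43.5% to 61.8% were 26 to 31 nt long.

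piRNAs are germline small RNAs that guide PIWI proteins, chiefly against transposons. Primary piRNAs begin with uridine, because the PIWI proteins prefer it, and their length is set by the protein that holds them. In the ping-pong cycle a cut opposite base 10 of one piRNA makes the 5′ end of a partner that carries A at position 10. The pachytene piRNAs of mouse spermatocytes and round spermatids derive from long single-stranded precursors, show little ping-pong, and decline before sperm mature.

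The sequences below are shown because they are the most abundant members that had at least 5 edits (substitutions, insertions or deletions) to each listed RNA and more than 4 to each microRNA hairpin and further tRNA that could be read. They are numbered by mean CPM (reads per 1000000 reads of the library) after joining members that share their first 20 bases, and the seventh is not shown because it did not have a sharp 5′ end. Capitals mark base 1 and base 10.
piRNA-like 1: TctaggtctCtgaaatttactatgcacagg
piRNA-like 2: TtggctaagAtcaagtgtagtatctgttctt
piRNA-like 3: TataaagtgTggtctggatgtcgaactcc
piRNA-like 4: TagaagacgAgtttggactgagcgaaattc
piRNA-like 5: TttgaaatcAggactgttctggaaattcc
piRNA-like 6: TgcgatgtgTgctttggatactgtaccagt
piRNA-like 8: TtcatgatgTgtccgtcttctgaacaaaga
piRNA-like 9: TaggacttcGcaatggttgcaaacttggga
piRNA-like 10: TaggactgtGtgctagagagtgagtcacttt

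The label did not hold for most of the reads. Of the 11666026 reads of the 4946 members, 88.4% belonged to 1313 members within 4 edits of a listed tRNA-Glu. The rule had kept them because a match allowed few substitutions and no lacking or gained base. How many of them lack or gain a base was not counted. Members close to another listed RNA numbered 48, those close to a microRNA hairpin 43, and those close to a further tRNA 73. The remaining 3469 members, called strict here, held 10.2% of the reads. The limit of 4 edits lay in a sparse range of distances to the listed RNAs: 808 members had 2 edits and 136 had 4, but 5 members had 5 edits, 9 had 6, and 1311 had 11.

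The most abundant member of all was a close copy of tRNA-Glu-CTC, 1 edit away, with a mean of 29279 CPM. It is shown to make clear what dominates the set.
tRNA-Glu copy: TccctgtggTctagtggttaggattcggcg
It had 36872 and 25030 CPM in Dnmt2+/+ ND, 18805 and 16738 CPM in Dnmt2+/+ HFD, 30521 and 36723 CPM in Dnmt2-/- ND, and 38837 and 30705 CPM in Dnmt2-/- HFD. Both Dnmt2+/+ HFD libraries lay below the other 6. Of the 10 most abundant members after joining, 6 were close to tRNA-Glu, 1 resembled a further tRNA, and 3 were piRNA-like 1, 2 and 3.

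Strict members could still hold fragments of longer RNAs, which was not tested. A narrower set was therefore taken after the values had been seen and is given as a description. It kept strict members with no run of 16 bases in common with a reference, for which at least 80% of the reads holding the first 20 bases started there and at least 50% of the reads with that start were 26 to 31 nt long. These 1941 sharp-ended members fell into 1109 groups of shared first 20 bases and held 6.58% of the members' reads. A total of 1673 of them (86.2%) were found in all 8 libraries. The 10 with most reads held 18.5% of the reads of the sharp-ended members, and the median sharp-ended member had 182 reads in all.

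T was the first base of most sharp-ended sequences. When the same filters were applied to sequences of any first base, 1941 of the sharp-ended sequences (86.5%) began with T, 123 with G, 95 with A and 85 with C. Among strict sequences of any first base, 64.8% began with T. Across libraries T-initial sequences held 74.4% to 91.8% of the reads of sharp-ended sequences, with a median of 80.4%. The first base was part of the rule for the members, so these shares describe the members' place among their neighbours.

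The summed level of all members was 142670 and 86358 CPM in Dnmt2+/+ ND (mean 114514 ± 39819, SD, n = 2), 81696 and 78260 CPM in Dnmt2+/+ HFD (79978 ± 2430), 112373 and 140475 CPM in Dnmt2-/- ND (126424 ± 19871), and 126219 and 113203 CPM in Dnmt2-/- HFD (119711 ± 9204). Between 4511 and 4839 of the members were detected in a library. These sums follow the tRNA-Glu copies, which alone gave 66691 to 124796 CPM. Summed levels have no test here, since the rule used the reads.

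For strict members the sums were 14765 and 8965 CPM in Dnmt2+/+ ND (11865 ± 4101, SD, n = 2), 14627 and 7872 CPM in Dnmt2+/+ HFD (11249 ± 4776), 5847 and 19799 CPM in Dnmt2-/- ND (12823 ± 9865), and 6235 and 11470 CPM in Dnmt2-/- HFD (8852 ± 3702). For sharp-ended members they were 9790 and 5447 CPM in Dnmt2+/+ ND (7618 ± 3071), 9700 and 4758 CPM in Dnmt2+/+ HFD (7229 ± 3494), 3478 and 13641 CPM in Dnmt2-/- ND (8560 ± 7186), and 3790 and 7069 CPM in Dnmt2-/- HFD (5430 ± 2318). The groups overlapped in both sets. The 2 libraries of 1 group differed by 1.80-fold in Dnmt2+/+ ND, 2.04-fold in Dnmt2+/+ HFD, 3.92-fold in Dnmt2-/- ND and 1.86-fold in Dnmt2-/- HFD in the sharp-ended sum, whereas the highest and lowest group means differed by 1.58-fold. The number of members a library detected varied little, from 1816 to 1887 of the 1941 sharp-ended members.

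Some microRNAs varied alongside. The 3 libraries with the lowest sharp-ended sums (Dnmt2-/- ND replicate 1, Dnmt2-/- HFD replicate 1 and Dnmt2+/+ HFD replicate 2) were also the 3 lowest for miR-881, a testis microRNA, at 323, 285 and 400 CPM, against 572 to 1435 CPM in the other 5. This pairing was picked after the values were seen. The 6 listed germ cell microRNAs summed to 368 to 1485 CPM, most of it miR-881, and miR-449a had 0 reads in 1 library. The others did not follow miR-881: miR-191 was lowest, at 25.5 and 26.6 CPM, in the 2 libraries with the highest sharp-ended sums, against 29.4 to 168 CPM elsewhere, and miR-34c was highest in Dnmt2+/+ ND replicate 2, at 45.1 CPM. The 5 listed microRNAs of epididymal epithelium (miR-200a, miR-200b, miR-200c, miR-141 and miR-429) were all detected and summed to 222.6 to 4099 CPM. They stood at 222.6 and 356 CPM in the libraries with the highest sharp-ended sums, 4099 CPM in the third, and 432 CPM in the lowest. The 5 blood microRNAs summed to 3.52 to 89.6 CPM, with miR-150 at 0 in 5 libraries. Of the muscle list only miR-206 could be read, at 73.3 to 87.5 CPM in Dnmt2-/- HFD replicate 1 and each library of Dnmt2+/+ HFD, and at most 0.676 CPM elsewhere. The part of other cells in the piRNA-like levels was not tested, and fewer cells of a type cannot be told apart from less RNA per cell.

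The libraries also fell into 3 sets by substitutions within tRNA-Gly reads. The sets were defined from the data, and the labels name no batch. Among reads of tRNA-Gly-GCC, with positions counted from 1 at the 5′ end of the tRNA, the reference's base first, G29T occurred in 1254 to 1353 of 10000 reads of Dnmt2+/+ ND replicate 1 and both Dnmt2-/- ND libraries, and in at most 4.31 of 10000 elsewhere. C26G occurred in 12.0 to 13.3 of 10000 reads of the 3 libraries with high miR-206, and in at most 1.40 elsewhere. Dnmt2+/+ ND replicate 2 and Dnmt2-/- HFD replicate 2 were low in both. All libraries of Dnmt2+/+ HFD lie in 1 set and all of Dnmt2-/- ND in another, so set and group are only partly separable.

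Some members followed these sets. A tRNA-like member of 30 nt had 1857, 1833 and 723 CPM in the 3 libraries high in the base-29 substitution, 0.147 CPM in Dnmt2+/+ ND replicate 2, 1.13 CPM in Dnmt2-/- HFD replicate 2 and 0 reads in the other 3. A count of 0 allows up to 3 reads, or 0.291 to 0.295 CPM in those 3 libraries, for counting error only. It differed from another member by G29T, with positions counted from 1 at the 5′ end of that member. Both forms are shown for the base at which they differ.
form with G: TtgggtgtaGctcagtggtagagcgcgtgc
form with T: TtgggtgtaGctcagtggtagagcgcgttc
The form with G had 46.9 and 185 CPM in Dnmt2+/+ ND, 0 reads in both Dnmt2+/+ HFD libraries, 45.3 and 15.3 CPM in Dnmt2-/- ND, and 0 reads and 1775 CPM in Dnmt2-/- HFD. A single library, Dnmt2-/- HFD replicate 2, held most of its reads.

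Sharp-ended members were mostly 29 and 30 nt long. Length 30 nt held 38.0% to 43.7% of their reads across libraries, 29 nt 25.2% to 27.8%, 31 nt 17.1% to 21.5%, 28 nt 6.36% to 13.6%, 27 nt 3.10% to 4.25% and 26 nt 1.64% to 2.77%. By sequence, 687 of 1941 were 30 nt and 503 were 29 nt. The tRNA-Glu copies peaked at 30 nt as well, with 38.2% to 47.1% of their reads, so length within the window did not separate the 2 kinds. The ranges of the lengths from 29 to 31 nt did not overlap one another in sharp-ended members.

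The 28 nt share of sharp-ended reads was 6.36% and 8.74% in Dnmt2+/+ ND, 10.3% and 13.6% in Dnmt2+/+ HFD, 7.62% and 7.06% in Dnmt2-/- ND, and 9.65% and 9.32% in Dnmt2-/- HFD. All 4 HFD libraries thus lay above all 4 ND libraries. Length 28 nt was singled out of 6 after the values were seen, and the share has no test. The full split depended on 1 sequence of 28 nt, that of lowest p for diet in Dnmt2+/+: without it the HFD shares were 8.69% and 11.4% in Dnmt2+/+ and 8.78% and 9.28% in Dnmt2-/-, and the lowest of them lay under the highest ND share of 8.74%. In the tRNA-Glu copies the 28 nt shares of the diets overlapped, at 6.30% to 6.83% on ND and 5.91% to 7.33% on HFD.

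The share of reads with A at position 10, the base that ping-pong partners carry, was low over all members, at 1.35% to 4.83% per library. It was 2.82% ± 0.180 in Dnmt2+/+ ND, 3.97% ± 1.22 in Dnmt2+/+ HFD, 2.59% ± 1.41 in Dnmt2-/- ND and 2.04% ± 0.970 in Dnmt2-/- HFD (SD, n = 2). The tRNA-Glu copies set that value, with 0.0407% to 0.0692%. In sharp-ended members the share was 27.7% and 32.1% in Dnmt2+/+ ND, 29.9% and 34.9% in Dnmt2+/+ HFD, 33.1% and 27.3% in Dnmt2-/- ND, and 30.7% and 28.8% in Dnmt2-/- HFD. The groups overlapped. Wilson 95% intervals were narrow, for example 27.5% to 27.9% in Dnmt2+/+ ND replicate 1 and 30.3% to 31.2% in Dnmt2-/- HFD replicate 1, and cover counting error only.

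Counted once per group of shared first 20 bases, A stood at position 10 in 291 of 1109 groups (26.2%, Wilson 95% interval 23.7% to 28.9%). T was the most frequent base there, at 30.5%. The share of A at neighbouring positions was 25.2% at position 8, 22.0% at position 9, 22.8% at position 11 and 23.2% at position 12. Over positions 2 to 20, A was most frequent at position 5, in 49.1% of the groups, and A was also frequent at position 2, at 36.5%. The share of A was also above that of position 10 at positions 3 (26.3%), 4 (30.7%), 6 (29.4%), 14 (27.95%) and 18 (26.3%). It was below that of position 10 at the remaining positions from 2 to 20. Position 10 thus did not stand out among these positions. Sharp-ended sequences with another first base were few: A stood at position 10 in 21 of 52 groups that began with A (40.4%, 28.2% to 53.9%), 17 of 46 that began with C (37.0%, 24.5% to 51.4%) and 9 of 53 that began with G (16.98%, 9.20% to 29.2%).

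Pairs with complementary 5′ ends were few, and the number that would arise by chance was not computed. A pair in which both groups began with T is counted from each side. Of the 1109 sharp-ended groups set against 1260 groups of any first base, 6 pairs were complementary over their first 10 bases, the overlap that ping-pong leaves. The count was 33 over 8 bases, 1 over 9, 2 over 11 and 0 over 12 to 14. Among strict members the counts were 92 over 8 bases, 19 over 9, 16 over 10, 4 over 11 and 0 over 12 to 14.

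A few members matched sequence next to annotated genes. Exact matches were sought on both strands of 32851 promoter windows from RefSeq (GRCm38.p6), each with 250 bases before and 50 after a gene start. Matches on a chromosome that was set aside were not kept, so the counts do not cover all of these windows. Of the 1941 sharp-ended members, 14 matched 7 windows, 8 in the direction of the gene and 6 against it. The rest of the genome was not searched, so these places may not be the only matches or the source of the reads. The 2 highest are shown for the place of their match.
Gm40579 window: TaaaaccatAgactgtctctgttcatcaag
Gm10505 window: TtcctgtagAatttccggtctggtcacact
The first lay at chr9:109774379-109774408 on the plus strand, in the direction of Gm40579, and had 27.7 and 1.98 CPM in Dnmt2+/+ ND, 2.33 and 0.787 CPM in Dnmt2+/+ HFD, 3.72 and 29.96 CPM in Dnmt2-/- ND, and 1.36 and 3.98 CPM in Dnmt2-/- HFD. The second lay at chr17:27342435-27342464 on the plus strand, in the direction of Gm10505, with 14.3 and 1.83, 4.86 and 1.18, 4.02 and 21.2, and 0.873 and 3.68 CPM in the same order. Both were highest in Dnmt2-/- ND replicate 2 and Dnmt2+/+ ND replicate 1. Other members matched windows of Gm52531, Gm20742, Gm10619 and Mif against the gene, and Gm21221 along it.

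The 3 leading piRNA-like sequences overlapped between groups. piRNA-like 1 had 589 and 200 CPM in Dnmt2+/+ ND, 419 and 151 CPM in Dnmt2+/+ HFD, 200 and 1054 CPM in Dnmt2-/- ND, and 127 and 431 CPM in Dnmt2-/- HFD. piRNA-like 2 had 467 and 195, 241 and 112, 254 and 595, and 115 and 276 CPM in the same order. piRNA-like 3 had 425 and 34.3, 65.8 and 21.2, 63.8 and 468, and 17.9 and 92.8 CPM. In each of the 3, Dnmt2+/+ ND replicate 1 and Dnmt2-/- ND replicate 2 were the highest libraries, and the ND and HFD libraries overlapped within both genotypes.

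piRNA-like 4 was flatter, from 33.2 CPM in Dnmt2-/- HFD replicate 1 to 147 CPM in Dnmt2-/- ND replicate 2, and had 72.1 CPM in Dnmt2+/+ ND replicate 1. piRNA-like 5 did not overlap by diet in Dnmt2+/+, with 98.3 and 117 CPM on ND and 57.6 and 34.6 CPM on HFD (log2 difference -1.85, SE 0.890, edgeR adjusted p = 0.345), but overlapped in Dnmt2-/-, with 55.0 and 144 CPM on ND and 27.7 and 91.1 CPM on HFD. piRNA-like 6 ranged from 19.3 to 190.6 CPM. piRNA-like 8, 9 and 10 ranged from 6.40 to 199 CPM, from 7.37 to 153 CPM and from 14.4 to 144.6 CPM. Their highest value was in Dnmt2-/- ND replicate 2 in each of these 6, and their lowest in Dnmt2-/- HFD replicate 1 in 5; piRNA-like 6 was lowest in Dnmt2+/+ HFD replicate 2. The seventh strict member, without a sharp 5′ end, ran the other way, with 18.3 and 63.1 CPM in Dnmt2+/+ ND, 115 and 68.6 CPM in Dnmt2+/+ HFD, 29.9 and 20.2 CPM in Dnmt2-/- ND, and 99.2 and 82.2 CPM in Dnmt2-/- HFD. Its HFD libraries lay above its ND libraries in both genotypes, with edgeR adjusted p of 0.740 and 0.517. The diets overlapped in both genotypes for piRNA-like 4, 6, 8, 9 and 10.

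The question of whether diet or Dnmt2 altered these RNAs was tested per distinct sequence with edgeR's quasi-likelihood test over the 50460 sequences that passed its filter on low counts, 4941 members among them. No member passed an adjusted p of 0.05 in any of the 5 comparisons: HFD against ND in Dnmt2+/+ and in Dnmt2-/-, Dnmt2-/- against Dnmt2+/+ on ND and on HFD, and the interaction. The share called over all sequences tested was 0% in each. Reads joined by their first 20 bases, a test chosen after seeing the data, likewise gave no call among 1109 sharp-ended groups, with 0% of 29799 groups called in each comparison. At an unadjusted p under 0.05, 13 of the 1109 groups (1.17%) were higher and 32 (2.89%) lower on HFD in Dnmt2+/+, beside 3.55% and 6.43% of all joined groups. In Dnmt2-/- 5 (0.451%) were higher and 18 (1.62%) lower, beside 2.96% and 1.47%. For genotype on ND 1 was higher and 1 lower (0.0902% each), beside 1.38% and 0.722%. On HFD 4 (0.361%) were higher and 0 lower, beside 7.03% and 0.289%. For the interaction 4 (0.361%) were higher and 1 (0.0902%) lower, beside 4.89% and 0.628%. Only the share lower on HFD in Dnmt2-/- was above that of all joined groups.

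The count of 0 members changed with the libraries and the filter on low counts, which was run again whenever a library was left out. It then kept 72594 to 78321 sequences, against 50460 with all libraries, so libraries and filter changed together. For diet in Dnmt2+/+ 811 members (16.4%) were called when Dnmt2+/+ ND replicate 2 was left out, beside 8.72% of all sequences tested. Leaving out replicate 1 of Dnmt2-/- HFD gave 370 members (7.48%, beside 2.33%), and leaving out its replicate 2 gave 341 (6.90%, beside 2.16%). With no filter on low counts 377 members were called (7.62%, beside 0.972%). For diet in Dnmt2-/- 511 members (10.3%, beside 5.48%) and 489 members (9.89%, beside 5.74%) were called when replicate 1 and replicate 2 of Dnmt2+/+ ND were left out. For genotype on ND leaving out Dnmt2+/+ ND replicate 1 gave 289 members (5.84%, beside 2.12%). In each of these fits the members' share was above that of all sequences, whereas with all libraries and the filter both were 0. Strict and sharp-ended members were also above all sequences in each of these fits. The comparison does not allow for read depth: members had to meet the limit on summed reads, and the sequences beside them did not. The same limit applies to the other shares set beside all sequences. The part of read depth was not tested.

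DESeq2 on the same sequences called 182 of 4941 members (3.68%) for diet in Dnmt2+/+, 10 higher and 172 lower on HFD, beside 2.1% of all sequences tested. It called 178 members (3.60%) for diet in Dnmt2-/-, beside 2.03% of all. For genotype it called 4 members (0.0810%) on ND, beside 0.0852% of all, and 15 (0.304%) on HFD, beside 0.0892%. For the interaction it called 7 (0.142%), beside 0.0555%. The calls therefore depend on the tool. Among the 1941 sharp-ended members DESeq2 called 25 (1.29%) and 65 (3.35%) for diet in Dnmt2+/+ and Dnmt2-/-, beside 2.1% and 2.03% of all. It called 2 (0.103%) for genotype on ND, 0 on HFD and 1 (0.0515%) for the interaction, beside 0.0852%, 0.0892% and 0.0555%. The sharp-ended share was above that of all sequences for diet in Dnmt2-/- and genotype on ND, and below it in the others.

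At an unadjusted p under 0.05 in edgeR, 68 members were higher and 631 lower on HFD in Dnmt2+/+ (1.38% and 12.8%), beside 4.68% and 10.6% of all sequences. In Dnmt2-/- 184 were higher and 432 lower on HFD (3.72% and 8.74%), beside 6.12% and 7.37%. For Dnmt2-/- against Dnmt2+/+ on ND 15 were higher and 114 lower (0.304% and 2.31%), beside 1.01% and 2.4%. On HFD 147 were higher and 4 lower (2.98% and 0.0810%), beside 3.98% and 0.319%. For the interaction 168 were higher and 16 lower (3.40% and 0.324%), beside 3.58% and 0.832%. For all members the share lower on HFD was above the background in both genotypes, and the other 8 shares were below it. That excess did not extend to the members unlike tRNA-Glu. In strict members 10.2% in Dnmt2+/+ and 5.36% in Dnmt2-/- were lower on HFD, and in sharp-ended members 8.04% and 6.34%, all below the background. For Dnmt2-/- against Dnmt2+/+ on ND the shares lower were 2.97% in strict and 3.66% in sharp-ended members, both above the background. For the interaction the share higher was 3.81% in strict members, above the background of 3.58%, and 1.96% in sharp-ended members, below it.

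The diet medians moved with the scaling and with the set term. With TMM factors the median log2 difference on HFD was -0.56 in Dnmt2+/+ and -0.66 in Dnmt2-/- for sharp-ended members, beside -0.15 and 0.12 over all sequences tested. With library totals alone the sharp-ended medians were 0.08 and -0.26, beside 0.39 and 0.56. The sign thus turned with the scaling in Dnmt2+/+ but not in Dnmt2-/-, and under both scalings the sharp-ended median lay below that of all sequences. With the set as a term they were 0.89 and 0.43, beside 0.06 and -0.29, above all sequences in both genotypes.

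For piRNA-like 1 the fitted log2 difference on HFD was -1.25 (SE 1.03, edgeR adjusted p = 0.596) in Dnmt2+/+ and -1.54 (SE 1.04, edgeR adjusted p = 0.568) in Dnmt2-/-. For piRNA-like 2 it was -1.66 (SE 0.901, edgeR adjusted p = 0.405) and -1.52 (SE 0.897, edgeR adjusted p = 0.505), and for piRNA-like 3 it was -3.27 (SE 1.40, edgeR adjusted p = 0.306) and -2.63 (SE 1.37, edgeR adjusted p = 0.436). None passed, and all 6 differences took the opposite sign with the set as a term.

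The member of lowest p for diet in Dnmt2+/+ was a sharp-ended sequence of 28 nt with A at position 10. It is shown because it had no reads in either Dnmt2+/+ ND library.
lowest p for diet: TagctgtgaAgaaaggtattttctgagt
It had 170 and 116 CPM in Dnmt2+/+ HFD, 1.52 and 2.28 CPM in Dnmt2-/- ND, and 35.9 and 3.31 CPM in Dnmt2-/- HFD. Taking the lower HFD library against a floor of 3 reads in a Dnmt2+/+ ND library, it was at least 530-fold higher on HFD. Its unadjusted p was 2.72e-05 and its adjusted p 0.281 in edgeR, and its adjusted p was 1.90e-08 in DESeq2. Over the edgeR alternatives its adjusted p ran from 5.01e-09 without the filter on low counts to 0.520 with the replicate block, and it was 0.0213 with the set as a term. Its 3 highest libraries were those high in the base-26 substitution, and both Dnmt2+/+ HFD libraries are among them. It also had the lowest p of the interaction, with an adjusted p of 0.999968 in edgeR and 0.0145 in DESeq2.

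For genotype on ND the lowest p was that of a 29-nt sharp-ended member, shown for the spread within its group.
lowest p for genotype on ND: TtttgatctTctgtttgttttctcacggg
It had 0.158 and 0 CPM in Dnmt2+/+ ND, 8.06 and 4.03 CPM in Dnmt2+/+ HFD, 2.50 and 21.3 CPM in Dnmt2-/- ND, and 1.84 and 3.46 CPM in Dnmt2-/- HFD. The Dnmt2+/+ ND libraries held 3 and 0 reads of it, so no fold is given. Its edgeR adjusted p was 1, its DESeq2 adjusted p 0.00380, and its edgeR adjusted p 0.0441 with the set as a term. The 3 members of lowest p for diet in Dnmt2-/- were all close copies of tRNA-Glu, highest in the libraries high in the base-29 substitution, with edgeR adjusted p of 0.263 each. For genotype on HFD the tRNA-like form with G, which had most of its reads in 1 library, was among the 3 of lowest p, with an edgeR adjusted p of 1.

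The limit of 100 reads cut through a dense range: 45 members had exactly 100 reads, and 64 sequences that met the rest of the rule had 99. The member just inside had 0 to 2.50 CPM per library and the sequence just outside 0.228 to 1.67 CPM.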

How the data were processed

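Small RNA reads of 8 sperm libraries were used; the deposited 3T3 files were not used here. The values are counts that the authors deposited: each file lists distinct sequences with length and number of reads. How adapters were trimmed is not stated in the labels. The submitters' processing notes name the builds mm10 and GRCm38. The libraries were joined by exact sequence, and CPM is reads per 1000000 reads of a library.

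No tRNA or rRNA sequences were given, so the 17 listed ones were written from memory, tested on the reads and corrected at 3 bases; 1827 of 1830 bases lay in windows of 17 bases found in reads. They served only to leave reads out. Edit distances were computed with edlib 1.3.9.post1 against them, 1005 microRNA hairpins and 8 tRNA genes in promoter windows. Some members may come from other organisms or from RNAs not compared here, so the letters of members that are neither sharp-ended nor close copies are not printed.

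The members and lists were chosen with earlier results of these data known. Sequences were named by rule: the 10 most abundant members and strict members after joining, the 3 of lowest p in each comparison, and 1 on each side of the read limit. Tests used edgeR 4.0.16 (quasi-likelihood, TMM, filterByExpr, Benjamini-Hochberg over all sequences) in R 4.3.3, with all 4 groups in 1 fit; DESeq2 1.42.0 was an alternative. The script was tested on simulated data with a spread that was set and not taken from these libraries. The pass marks were revised after a first result was seen. That check does not measure how many changes these libraries could show. Replicates of a group differed beyond sampling noise. Alternatives covered the filter, scaling, replicate block, library set, read limit, match rule and each library left out; the sharp-ended set and the fit on joined reads were added after seeing the data.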

Additional observations from a re-analysis of the deposited data

How the results depend on the processing

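No member passed edgeR's test in the 5 comparisons with all libraries. The number of members called was also 0 in each with library totals in place of TMM and with a replicate block. Deviations of same-numbered libraries correlated from -0.255 to 0.183. The labels do not say what a replicate number stands for, and these values do not tell whether same-numbered libraries were handled together. In the order diet in Dnmt2+/+, diet in Dnmt2-/-, genotype on ND, genotype on HFD and interaction, members called were 377, 373, 9, 52 and 36 without filterByExpr (of 1818, 2240, 107, 204 and 227 of all 187037 sequences), 182, 178, 4, 15 and 7 with DESeq2 (of 1060, 1023, 43, 45 and 28 of 50460), and 3, 1, 2, 0 and 2 with the library set as a term (of 24, 32, 79, 70 and 26 of 50460). Leaving out 1 library gave 0 to 811, 0 to 511, 0 to 289, 0 to 74 and 0 to 79 members; the shares over all sequences stand beside the largest counts for diet and for genotype on ND above. The 74 are 1.496% of members beside 0.413% of all sequences, and the 79 are 1.60% beside 0.838%. The largest count for diet in Dnmt2+/+ came without Dnmt2+/+ ND replicate 2. Those for diet in Dnmt2-/-, genotype on ND and the interaction came without Dnmt2+/+ ND replicate 1. That for genotype on HFD came without Dnmt2-/- HFD replicate 1. The count of 0 thus changed when a library was left out, but the filter on low counts then also kept more sequences. The part of each was not tested. Diet in Dnmt2+/+ also gave calls without either library of Dnmt2-/- HFD. It gave a few without Dnmt2+/+ ND replicate 1 and without either library of Dnmt2+/+ HFD. Diet in Dnmt2-/- also gave calls without Dnmt2+/+ ND replicate 2 and without either library of Dnmt2+/+ HFD, and a few without Dnmt2-/- HFD replicate 2. Genotype on HFD also gave calls without Dnmt2+/+ ND replicate 1, and the interaction also gave calls without Dnmt2-/- HFD replicate 1. Joined by first 20 bases, 0 to 14, 0 to 4, 0 to 1, 0 to 8 and 0 to 8 sharp-ended groups were called when 1 library was left out. At the largest of these counts the share called was below that of all joined groups for both diet comparisons, genotype on HFD and the interaction. It was above that of all joined groups for diet in Dnmt2+/+ without Dnmt2+/+ HFD replicate 1. For genotype on ND it was above without Dnmt2-/- HFD replicate 1 and below without Dnmt2-/- HFD replicate 2. Where a group keeps 1 library, that library is assumed to vary like the others.

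The members numbered 10209 at a limit of 50 reads and 2373 at 200. Group means of summed CPM, in the order Dnmt2+/+ ND, Dnmt2+/+ HFD, Dnmt2-/- ND and Dnmt2-/- HFD, were 21282, 18717, 25841 and 16807 once members within 2 edits were left out. Leaving out exact matches alone moved 3 means by over 1 SD, to 109884, 156753 and 153184 in the last 3 groups. Limits of 50 and 200 reads gave 84210 and 76086 in Dnmt2+/+ HFD. Per 1000000 reads of 26 to 31 nt the means were 191969, 176276, 208447 and 214684, and per 1000000 reads matching no listed RNA 221765, 134460, 253086 and 217723. Strict means were 19891, 25096 and 16212 per 1000000 reads of 26 to 31 nt in both Dnmt2+/+ groups and Dnmt2-/- HFD, and 22977, 18804, 25989 and 16611 per 1000000 reads matching no listed RNA. Leaving out 1 library gave the other library's sum, printed with the results: 86358 to 142670, 78260 to 81696, 112373 to 140475 and 113203 to 126219 for all members.

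The share of reads with A at position 10, a mean of 2.85% over the 8 libraries, was 17.7% with each sequence counted once, 22.2% joined by first 20 bases, 26.7% in strict members and 14.5% with members within 2 edits left out. With the library set as a term the diet log2 differences of piRNA-like 1, 2 and 3 turned to 1.89, 0.75 and 2.34 in Dnmt2+/+ and 1.14, 0.73 and 2.24 in Dnmt2-/-.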
